A study of Homo sapiens with 12 samples.

Results

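ATP-dependent chromatin remodelling enzymes use the energy of ATP hydrolysis to slide, evict or restructure nucleosomes, and they work as large complexes in which 1 ATPase is joined by many other subunits. The families are named after their ATPases: SWI/SNF (the BAF, PBAF and ncBAF complexes), ISWI, CHD and INO80/SWR. In cancer biology they are best known through SWI/SNF, whose subunit ARID1A is often lost by mutation in ovarian clear cell carcinoma. The 45 genes described here encode ATPases and partner subunits of these families, together with 4 further SNF2-like ATPases. They were given as a list of names, chosen with earlier results of these data known but with no threshold on signal or change. They are 45 of the 20783 genes that have a probe of their own on at least 1 of the 2 platforms. All 45 had a single-gene probe set on AFFX and 39 had a single-gene probe on ABI, out of 16186 genes measured on both. SMARCD2, ACTL6A, SS18L1, CHD3, CHD8 and INO80 were measured on AFFX alone.

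RNA came from A2780, an established human ovarian carcinoma cell line. Treated cells had 6 hours of exposure to 3 µM of a cell cycle inhibitor whose name is not given, and control cells were left untreated. Each condition was 1 pool of 3 biological replicates of attached cells, divided into 3 aliquots per platform, so there were 3 treated and 3 control arrays on the Affymetrix HG-U133 Plus 2.0 GeneChip (AFFX, short oligonucleotides and fluorescence) and as many on the Applied Biosystems Human Genome Survey Microarray (ABI, long oligonucleotides and chemiluminescence). The arrays of a condition are therefore technical replicates, and every p-value below compares 2 RNA pools and not separate cultures. Values are log2 signals, as deposited for AFFX and taken here from the deposited signals for ABI, which were treated as linear, and a change is the treated mean minus the control mean. A gene is given as lower or higher when its adjusted p in limma (Benjamini-Hochberg over all probes of the platform) was under 0.05 and its change was at least 1.5-fold. A gene with several probes is represented by the one with the smallest p between the groups, a choice taken from the study's methods, which makes the folds of these genes tend to the large side.

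Array medians were close, at 5.42 to 5.47 in treated and 5.37 to 5.41 in control arrays on AFFX (log2), and at 1.08 to 1.09 in treated and 1.06 to 1.19 in control arrays on ABI (deposited units). For the 45 genes the median SD between AFFX arrays was 0.0840 in treated and 0.0869 in control cells (n = 3 each), against 0.141 and 0.113 for the 39 genes on ABI. Ribosomal protein genes were higher in treated arrays by 0.30 on AFFX and by 0.63 on ABI, and the AFFX hybridisation controls by 0.52, so all changes below hold relative to the authors' scaling of the arrays, and positive values under these shifts would turn negative if the arrays were centred on those genes or controls. The signals of the brightest AFFX probe sets of VIM (13.6 in treated and 13.7 in control arrays) and CDH2 (10.4 and 10.1) were high, while EPCAM (4.21 and 4.23) and MUC16 (4.24 and 4.02) lay below the median of the leukocyte markers, a list of genes these cells should lack, which was 4.56 in treated and 4.54 in control arrays over all their probe sets. On the epithelial and ovarian carcinoma list that holds these genes, CDH1 (4.45 and 4.17) and WT1 (3.98 and 3.75) also lay below this median. PAX8 (7.83 and 7.65), KRT8 (6.26 and 6.20), KRT18 (6.11 and 5.93) and KRT19 (4.88 and 4.62) lay above it. The brightest probe sets of the leukocyte markers themselves ranged from 4.12 to 7.09 in treated and from 3.88 to 6.57 in control arrays (TYROBP to CD79A). The 3 keratins lay within this range, so their place above the median does not show that they were expressed. On ABI the brightest probes of MUC16 (1.44 and 0.28), EPCAM (-1.18 and -0.15) and WT1 (-0.24 and 0.10) lay above the leukocyte medians of -1.20 and -1.01. CDH1 (-1.25 and -2.54) lay below them, the only one of the 9 measured there that did. The brightest ABI probe of a leukocyte marker, SPI1, had 3.32 and 2.42. Of the 15 leukocyte markers measured on AFFX none passed the thresholds, and of the 14 on ABI 1, SPI1, was higher. Their summed linear signal was 686 to 767 in treated and 565 to 613 in control arrays on AFFX, and its part in the results was not tested. In a bulk sample, fewer cells of a kind and less RNA per cell cannot be told apart.

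The chromatin remodelling genes that changed were almost all lower in treated cells. On AFFX 16 of 45 were lower and 0 were higher, where 14.2% of all genes measured on AFFX were lower and 2.49% higher. On ABI 9 of 39 were lower and 1 was higher, where the shares over all genes were 14.8% and 6.31%. Quantile normalization of the ABI arrays changed this split to 7 lower and 3 higher, and centring on ribosomal protein genes to 20 lower and 0 higher. The shares just given belong to the authors' scaling and are not the background of these altered counts. Under ribosomal centring the count of lower genes over all ABI genes rose as well, with values in the section on processing. A gene with several probes has more chances to pass by its smallest p. Several AFFX probe sets were present for 35 of the 45 genes, against 10523 of all 19777. Several ABI probes were present for 13 of the 39, against 3188 of 17192. The shares over all genes are therefore not a like background for the counts of the 45 genes. The 8 genes lower on both platforms, of 39, were the SWI/SNF subunits ARID1A and DPF2, the SS18 homologue SS18L2, the ISWI partners BPTF and BAZ1A, the ATPases CHD1 and CHD7, and SMARCAD1. Over all shared genes 10.5% were lower on both, and 0.42% were higher on both, where none of the 39 was. The median change of the 45 genes was -0.13 on AFFX, against 0.16 for all genes, and that of the 39 genes was -0.10 on ABI, against 0.09. Without the fold limit, 20 were lower and 9 higher on AFFX, where 21.8% and 33.1% of all genes were, and on ABI 10 were lower and 1 higher, against 15.8% and 8.41%.

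**Figure D1:**
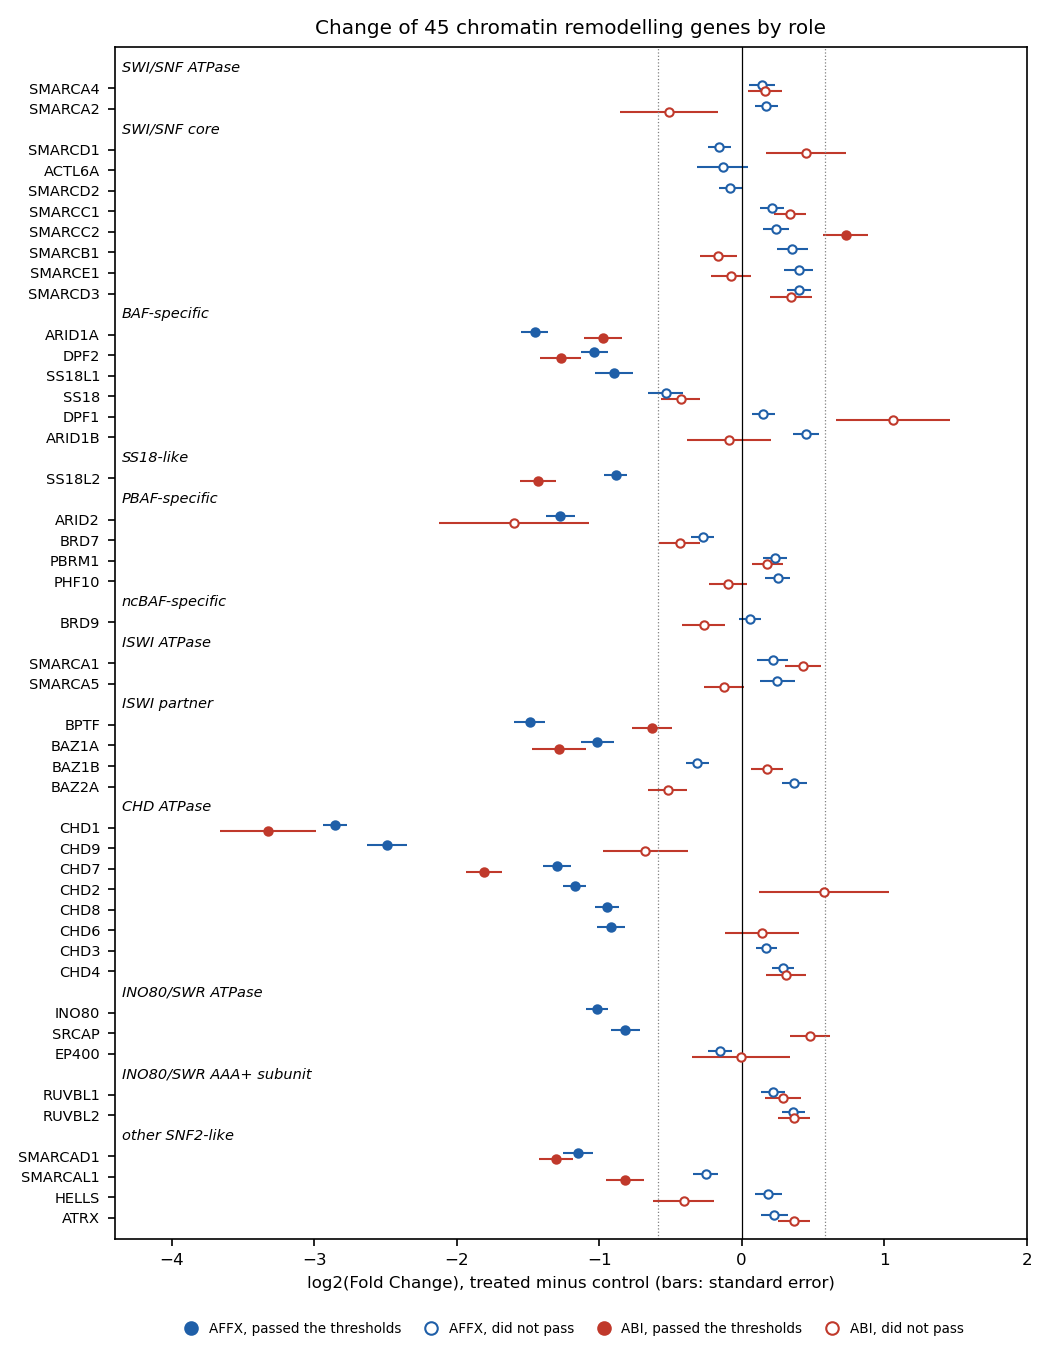
Change of each of the 45 genes (log2(Fold Change), treated minus control, with the standard error) on AFFX and on ABI, ordered by role in its complex, with dotted lines at 1.5-fold in either direction. Filled points, which passed the thresholds, lie to the left of zero with the exception of SMARCC2 on ABI, and CHD1 lies farthest left on both platforms, at -2.85 and -3.32.

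Promoters are shown for the gene with the largest fall, for a second gene that was lower on both platforms with a base composition unlike it, and for the SWI/SNF ATPase SMARCA4, which passed on neither platform. RefSeq (GRCh38.p14) gave a promoter of 300 bases around the annotated start for 36 of the 45 genes, leaving SMARCC1, SMARCC2, ACTL6A, ARID2, BPTF, BAZ1A, CHD6, CHD7 and ATRX without one. Capitals mark the motifs that were found out of a set searched on both strands, namely the GC box with the letters GGGCGG, the CCAAT box under that name, the short cyclic AMP response element with the letters TGACG, the TATA box with the letters TATAAA, the ETS site with the letters CCGGAAG, the E-box with the letters CACGTG and the E2F site with the letters GCGGGAA. Neighbouring GC boxes can share bases with each other or with an E2F site.
CHD1 promoter, chr5:98928958-98929257, minus strand: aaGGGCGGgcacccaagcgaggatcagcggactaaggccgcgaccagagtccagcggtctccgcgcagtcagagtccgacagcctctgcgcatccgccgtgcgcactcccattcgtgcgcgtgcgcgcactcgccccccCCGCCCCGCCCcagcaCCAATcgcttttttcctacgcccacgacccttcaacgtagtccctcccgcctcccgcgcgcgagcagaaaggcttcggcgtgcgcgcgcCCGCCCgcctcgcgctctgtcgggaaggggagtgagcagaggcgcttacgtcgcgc
SMARCAD1 promoter, chr4:94207358-94207657, plus strand: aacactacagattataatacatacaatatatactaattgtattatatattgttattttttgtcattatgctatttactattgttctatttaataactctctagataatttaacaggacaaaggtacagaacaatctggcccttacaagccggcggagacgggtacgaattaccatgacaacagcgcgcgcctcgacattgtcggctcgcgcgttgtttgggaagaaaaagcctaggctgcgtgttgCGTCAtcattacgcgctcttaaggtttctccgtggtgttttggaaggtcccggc
SMARCA4 promoter, chr19:10960780-10961079, plus strand: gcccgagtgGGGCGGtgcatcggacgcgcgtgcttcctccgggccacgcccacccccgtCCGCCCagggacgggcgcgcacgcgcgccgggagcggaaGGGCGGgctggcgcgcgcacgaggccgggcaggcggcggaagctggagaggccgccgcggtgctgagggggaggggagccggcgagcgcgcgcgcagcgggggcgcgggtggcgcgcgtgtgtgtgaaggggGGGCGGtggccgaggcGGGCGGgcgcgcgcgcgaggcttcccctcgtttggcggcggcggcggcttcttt
The CHD1 window held 4 GC boxes and 1 CCAAT box at 70.7% GC, and the SMARCA4 window held 5 GC boxes at 81.3% GC. The SMARCAD1 window, at 41.3% GC, held 1 cyclic AMP element and no GC box. A GC box was present in 28 of the 36 promoters, against 44.6% of the 27305 RefSeq promoters of the same length, and the median GC content was 67.2% against 58.3%. Among the 11 promoters of genes lower on AFFX the GC box was found in 8, the CCAAT box in 3 and the cyclic AMP element in 4, and among the 25 of genes not lower on AFFX in 20, 10 and 11. The shares over all promoters were 35.7% for the CCAAT box and 25% for the cyclic AMP element. The E2F site was found in 0 of the 11 and in 5 of the 25 (6.56% of all promoters). These are matches of letters and were not tested.

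The SWI/SNF ATPases SMARCA4 and SMARCA2, which drive the BAF and PBAF complexes as alternatives to each other, passed the thresholds on neither platform. SMARCA4 had AFFX signals of 10.19, 10.29 and 10.14 in treated and 10.18, 9.99 and 10.03 in control arrays, so that the groups overlapped, and its change was 0.14 on AFFX (standard error 0.0885, adjusted p = 0.223) and 0.16 on ABI (standard error 0.123, adjusted p = 0.408). SMARCA2 had a change of 0.17 on AFFX (adjusted p = 0.119) and of -0.51 on ABI (standard error 0.346, adjusted p = 0.360), where its signal was low. None of the 9 AFFX probe sets of SMARCA4 or the 7 of SMARCA2 passed.

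The core subunits, which are shared between SWI/SNF complexes, stayed within a narrow range on AFFX, with changes between -0.16 (SMARCD1) and 0.41 (SMARCD3) and 0 of 8 past the thresholds. SMARCB1, the subunit lost in rhabdoid tumours, had a change of 0.36 on AFFX (adjusted p = 0.0266) and of -0.16 on ABI (adjusted p = 0.438). The brightest AFFX probe set of SMARCB1 had a change of -0.02 (adjusted p = 0.853). The exception on ABI was SMARCC2, a scaffold subunit, with signals of 2.00, 2.24 and 2.20 in treated and 1.56, 1.18 and 1.52 in control arrays. Its groups did not overlap and it was higher by 0.73 (standard error 0.160, adjusted p = 0.0301, 1 of 6 core subunits measured on ABI). The second ABI probe of SMARCC2 had a change of 0.38 (adjusted p = 0.134) and the AFFX probe set 0.24 (adjusted p = 0.0588), and the call was lost when any 1 of the 6 ABI arrays was left out, with a change of 0.61 to 0.80.

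Among the subunits that set 1 SWI/SNF complex apart from another, ARID1A and DPF2 were lower on both platforms. ARID1A, a DNA-binding subunit of BAF (Entrez Gene ID 8289, chromosome 1), had AFFX signals of 8.31, 8.34 and 8.08 in treated and 9.79, 9.65 and 9.64 in control arrays. All treated arrays lay below all control arrays, and ARID1A was 2.74-fold lower (change -1.45, standard error 0.0953, adjusted p = 6.9e-07), with 3 of its 4 AFFX probe sets lower. On ABI its signals were 4.50, 4.26 and 4.35 in treated and 5.46, 5.33 and 5.24 in control arrays, or 1.96-fold lower (adjusted p = 0.0079). A second ABI probe of ARID1A did not pass (0.76, adjusted p = 0.662), and its signals ranged from -2.0 to 0.08 in treated and from -3.06 to 0.38 in control arrays.

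DPF2, a PHD finger subunit of BAF (Entrez Gene ID 5977, chromosome 11), gave 8.29, 8.19 and 8.14 on treated and 9.38, 9.21 and 9.13 on control AFFX arrays. The treated arrays were lower without overlap, by 2.05-fold (change -1.03, adjusted p = 7.95e-06). The ABI signals of DPF2 were 2.68, 2.49 and 2.42 in treated and 3.93, 3.82 and 3.65 in control arrays, which is 2.41-fold lower (adjusted p = 0.00414). SS18L2, a small homologue of the BAF subunit SS18 (Entrez Gene ID 51188, chromosome 3), was lower as well, at 9.03, 9.04 and 8.93 in treated and 9.87, 9.87 and 9.90 in control AFFX arrays (1.84-fold, adjusted p = 8.3e-06). On ABI it had 4.14, 4.18 and 4.08 in treated and 5.68, 5.54 and 5.46 in control arrays, 2.69-fold lower (adjusted p = 0.00173). The fall of SS18L2 was smaller on AFFX than on ABI, with a difference of the changes of 0.55 (standard error 0.114, interaction in limma, adjusted p = 0.0105).

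SS18L1, also called CREST, takes part in the neuronal BAF complex and was measured on AFFX alone. It was lower there, at 6.92, 6.92 and 6.58 in treated and 7.91, 7.77 and 7.43 in control arrays (change -0.90, adjusted p = 0.000476). SS18 itself, the subunit fused in synovial sarcoma, had a change of -0.53 on AFFX (adjusted p = 0.00595), which is under 1.5-fold, and of -0.43 on ABI (adjusted p = 0.0810). DPF1, the neuronal counterpart of DPF2, did not pass on AFFX (0.15) or on ABI (1.06, standard error 0.40, adjusted p = 0.122), where its signals were low.

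ARID1B, the alternative to ARID1A in BAF, had AFFX probe sets that passed in opposite directions, 1 lower and 2 higher out of 7. The lower probe set had 3.85, 4.03 and 3.85 in treated and 4.89, 4.86 and 4.31 in control arrays, a change of -0.78 (adjusted p = 0.00179). A higher one had 7.82, 8.14 and 7.98 in treated and 7.58, 7.05 and 7.48 in control arrays, a change of 0.61 (adjusted p = 0.00562), and the other had 4.42, 4.73 and 4.42 in treated and 3.88, 3.99 and 3.92 in control arrays, a change of 0.60 (adjusted p = 0.00104). In none of these probe sets did the groups overlap, and the lower one and the second higher one had low signals, near the median of the leukocyte markers. The probe set kept for ARID1B had a change of 0.45 (adjusted p = 0.00301), under 1.5-fold, and turned to -0.07 with arrays centred on the hybridisation controls. On ABI it had a change of -0.09 (adjusted p = 0.866), with means of -1.72 in treated and -1.63 in control arrays, below the leukocyte medians of -1.20 and -1.01.

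Of the PBAF subunits, ARID2 was lower on AFFX and PBRM1, BRD7 and PHF10 did not pass on either platform. ARID2, the DNA-binding subunit that takes the place of ARID1A in PBAF, had 6.78, 6.67 and 6.54 in treated and 8.11, 7.87 and 7.83 in control AFFX arrays. It was 2.42-fold lower without overlap (change -1.27, standard error 0.102, adjusted p = 3.3e-06), and all 4 of its probe sets were lower, with changes between -1.51 and -0.73. On ABI ARID2 had -2.84, -2.74 and -1.89 in treated and 0.10, -1.03 and -1.74 in control arrays, a change of -1.60 (standard error 0.526) that missed the threshold (adjusted p = 0.0878). These ABI signals were low, with a treated mean of -2.49 where the leukocyte markers had a median of -1.20. The changes of the platforms differed by 0.33 (standard error 0.566, adjusted p = 0.761). PBRM1, with its series of bromodomains, had a change of 0.23 on AFFX and 0.18 on ABI. Its 6 AFFX probe sets differed in sign, with a median change of 0.10. The lowest had -0.47 (adjusted p = 0.0189) and -0.46 (adjusted p = 0.00868), under 1.5-fold. A second ABI probe of PBRM1 had -0.41 (adjusted p = 0.772). BRD9, which marks the ncBAF complex, had 0.06 on AFFX and -0.27 on ABI (adjusted p = 0.561 and 0.280).

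The ISWI ATPases SMARCA1 and SMARCA5, which space nucleosomes evenly, did not pass the thresholds (0.22 and 0.25 on AFFX, 0.43 and -0.12 on ABI), whereas 2 of their 4 partner subunits were lower on both platforms. BPTF, the largest subunit of the NURF complex (Entrez Gene ID 2186, chromosome 17), had AFFX signals of 6.80, 6.88 and 6.54 in treated and 8.36, 8.24 and 8.09 in control arrays, 2.81-fold lower (change -1.49, standard error 0.110, adjusted p = 1.73e-06). On ABI the difference was near the limit, with 3.66, 3.34 and 3.43 in treated and 4.10, 4.04 and 4.17 in control arrays (1.545-fold lower, adjusted p = 0.0308). No groups overlapped, but the ABI call was lost with the arrays quantile normalized (-0.38), with log2(signal + 1) (-0.58) and when any of 5 of the 6 ABI arrays was left out (changes of -0.72 to -0.56 over all 6). For the kept probes the fall of BPTF was larger on AFFX, with a difference of -0.86 (standard error 0.174, adjusted p = 0.00882). The brightest of its 5 AFFX probe sets, 1 of 2 that were lower, had a change of -0.76 (adjusted p = 0.000231), and the difference was then -0.14 (adjusted p = 0.679).

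BAZ1A, also called ACF1, the partner of SMARCA5 in the ACF and CHRAC complexes (Entrez Gene ID 11177, chromosome 14), had 6.86, 7.04 and 6.67 in treated and 8.05, 7.83 and 7.74 in control AFFX arrays, 2.02-fold lower (change -1.01, adjusted p = 5.56e-05). A second probe set of BAZ1A, the brighter one, had a change of -0.07. On ABI its signals were 0.85, 1.07 and 1.40 in treated and 2.27, 2.30 and 2.59 in control arrays, 2.43-fold lower without overlap (adjusted p = 0.00992). BAZ1B, the Williams syndrome transcription factor, had a change of -0.31 on AFFX (adjusted p = 0.0124) and 0.18 on ABI (adjusted p = 0.334), where its brighter probe had -0.33 (adjusted p = 0.185). BAZ2A, which silences ribosomal DNA in the NoRC complex, had 0.37 on AFFX (adjusted p = 0.00811) and -0.52 on ABI (adjusted p = 0.0483). Both were under 1.5-fold on either platform, and their changes differed between the platforms by -0.49 for BAZ1B (adjusted p = 0.0131) and 0.89 for BAZ2A (adjusted p = 0.00265). With the brightest probes these differences were 0.01 (adjusted p = 0.968) and 0.60 (adjusted p = 0.0204). For BAZ1B both tests used the same AFFX probe set, and its difference was found with the dimmer ABI probe and not with the brighter. Another AFFX probe set of BAZ1B had a change of 0.35 (adjusted p = 0.0117), and the median over its 4 was 0.15. That probe set was not tested against ABI.

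**Figure D2:**
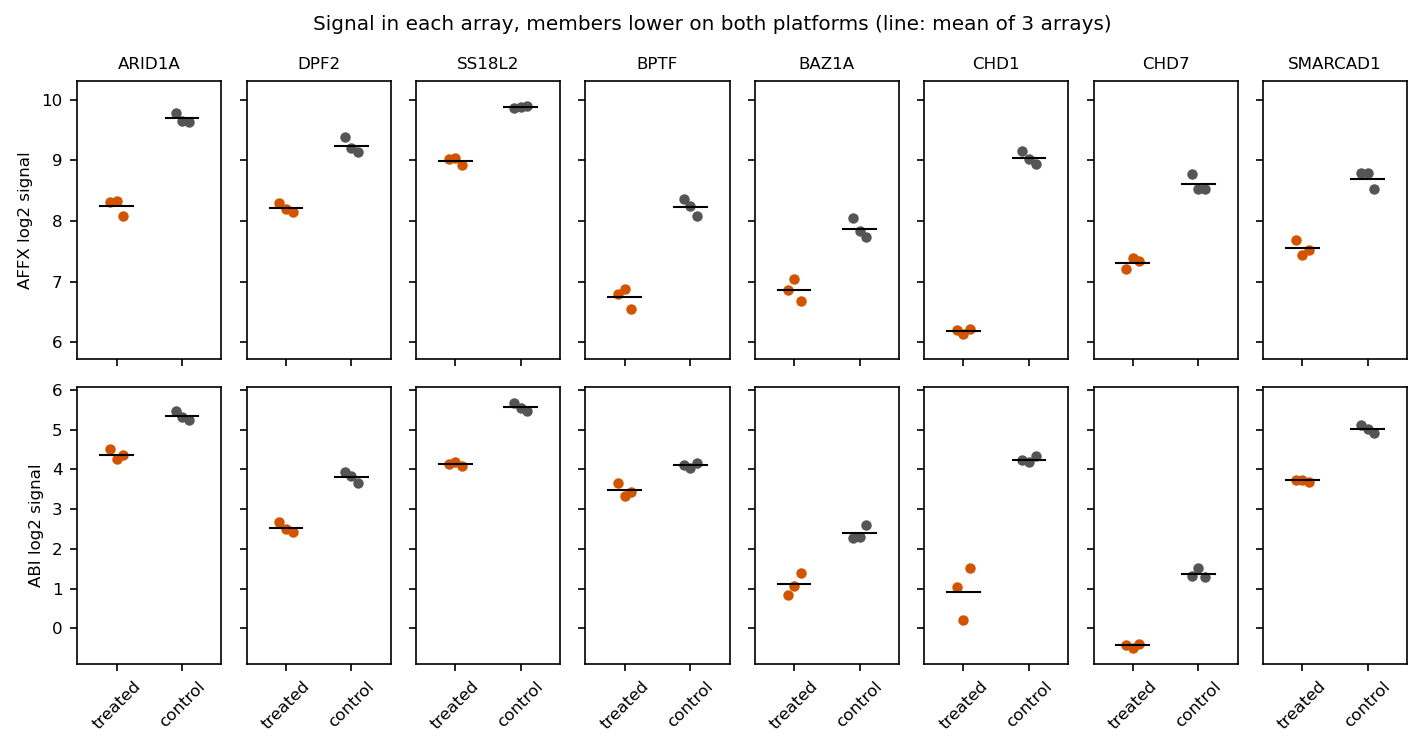
Log2 signal in each treated and control array for the 8 genes lower on both platforms, AFFX above and ABI below, with a line at the mean of 3 arrays. In every panel the 3 treated arrays lie below the 3 control arrays, and the gap is widest for CHD1.

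The CHD family, ATPases with paired chromodomains, held the largest fall on AFFX. There 6 of its 8 genes were lower (CHD1, CHD2, CHD6, CHD7, CHD8 and CHD9), and CHD3 and CHD4, the ATPases of the NuRD complex, were not. On ABI 2 of the 6 genes measured were lower. CHD1, which binds methylated histone H3 and travels with elongating RNA polymerase II (Entrez Gene ID 1105, chromosome 5), had AFFX signals of 6.21, 6.13 and 6.22 in treated and 9.15, 9.02 and 8.94 in control arrays. It was 7.23-fold lower (change -2.85, standard error 0.0870, adjusted p = 6.11e-09), and a second AFFX probe set had a change of -3.87, with a treated mean of 4.42 that lay below the leukocyte median. Its ABI signals were 1.04, 0.21 and 1.52 in treated and 4.23, 4.18 and 4.34 in control arrays, 10.0-fold lower (change -3.32, standard error 0.340, adjusted p = 0.00294). The gap between groups was many times the spread between arrays on either platform, and a difference between the platforms was not found (0.47, standard error 0.361, adjusted p = 0.444).

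CHD7, an ATPase found at enhancers and mutated in CHARGE syndrome (Entrez Gene ID 55636, chromosome 8), had 7.20, 7.39 and 7.34 in treated and 8.77, 8.52 and 8.53 in control AFFX arrays, 2.46-fold lower (change -1.30, adjusted p = 1.9e-06). Its ABI signals were -0.42, -0.49 and -0.40 in treated and 1.30, 1.51 and 1.30 in control arrays, 3.50-fold lower (adjusted p = 0.00102). The groups did not overlap, but other probes of CHD7 had smaller changes: 1 of 4 AFFX probe sets and 1 of 3 ABI probes were lower, and with the brightest probe in place of the kept one the change was -0.45 on AFFX and -0.47 on ABI (adjusted p = 0.273). CHD8, which binds beta-catenin, was measured on AFFX alone, at 8.20, 8.27 and 8.09 in treated and 9.17, 9.07 and 9.14 in control arrays (change -0.94, adjusted p = 8.09e-06).

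CHD9 was lower on AFFX, with 4.19, 4.61 and 4.36 in treated and 7.07, 6.98 and 6.58 in control arrays, 5.62-fold lower (change -2.49, standard error 0.141, adjusted p = 2.37e-07). The treated mean of 4.39 lay below the leukocyte median of 4.56, so the size of this fold is uncertain. The brightest probe set of CHD9 had 6.85, 6.90 and 6.37 in treated and 8.32, 8.32 and 8.19 in control arrays, 2.96-fold lower (adjusted p = 4.34e-06). Of the 7 AFFX probe sets of CHD9, 3 were lower, and the median change over all of them was -0.37. On ABI CHD9 had 1.40, 1.44 and 1.72 in treated and 1.98, 1.80 and 2.81 in control arrays, a change of -0.68 (standard error 0.295) that did not pass (adjusted p = 0.171) although the groups did not overlap. The difference between the platforms was -1.82 (standard error 0.354, adjusted p = 0.00739) for the kept probes and -0.89 (standard error 0.344, adjusted p = 0.135) for the brightest.

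CHD2, the closest relative of CHD1, had 7.17, 7.12 and 7.16 in treated and 8.34, 8.27 and 8.36 in control AFFX arrays, 2.25-fold lower (change -1.17, adjusted p = 8.37e-07). This was the only lower one of its 6 AFFX probe sets, whose median change was -0.10 and of which another had a change of 0.50 (adjusted p = 0.00197). On ABI CHD2 had -0.22, 1.5 and 1.13 in treated and 0.37, 0.14 and 0.18 in control arrays, with overlap between the groups (change 0.58, adjusted p = 0.433). CHD6, a member of the CHD7 subfamily, had a change of -0.92 on AFFX (adjusted p = 3.13e-05), with 2 of 4 probe sets lower, and 0.14 on ABI (adjusted p = 0.745). The ABI means of CHD6, -0.99 in treated and -1.13 in control arrays, lay close to the leukocyte medians of -1.20 and -1.01, so a fall could hardly be seen there. The platform difference was -1.75 for CHD2 (adjusted p = 0.0356) and -1.06 for CHD6 (adjusted p = 0.0301). CHD3 and CHD4 had changes of 0.17 (adjusted p = 0.0934) and 0.29 (adjusted p = 0.0152) on AFFX, and CHD4 0.31 on ABI (adjusted p = 0.190).

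Of the INO80/SWR ATPases, INO80 and SRCAP were lower on AFFX and EP400 did not pass (-0.15, adjusted p = 0.162). INO80, the ATPase of the complex of that name, had 7.60, 7.57 and 7.57 in treated and 8.61, 8.61 and 8.57 in control AFFX arrays, 2.02-fold lower (change -1.01, standard error 0.0768, adjusted p = 2.12e-06). Both of its probe sets were lower, and the other had a change of -1.28. SRCAP, which deposits the histone variant H2A.Z, had 5.78, 5.85 and 5.79 in treated and 6.80, 6.63 and 6.44 in control AFFX arrays (change -0.82, adjusted p = 0.000104). It was the only lower one of 4 AFFX probe sets of SRCAP, and the brightest of them had a change of -0.04. On ABI SRCAP had 4.62, 4.66 and 4.38 in treated and 4.20, 4.0 and 4.04 in control arrays, so the treated arrays were the higher ones (change 0.48, adjusted p = 0.0668). The changes of SRCAP on the platforms differed by -1.29 (standard error 0.164, adjusted p = 0.000684), and by -0.51 (adjusted p = 0.0583) with the brightest probes. RUVBL1 and RUVBL2, the paired AAA+ ATPases shared by INO80, SRCAP and TIP60 complexes, had changes of 0.22 and 0.36 on AFFX and 0.29 and 0.37 on ABI and did not pass.

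Among the remaining SNF2-like ATPases, SMARCAD1 was lower on both platforms. SMARCAD1, which helps to restore silent chromatin after replication (Entrez Gene ID 56916, chromosome 4), had 7.69, 7.43 and 7.53 in treated and 8.79, 8.79 and 8.53 in control AFFX arrays, 2.22-fold lower (change -1.15, adjusted p = 8.38e-06). Its ABI signals were 3.74, 3.73 and 3.69 in treated and 5.12, 5.03 and 4.92 in control arrays, 2.47-fold lower (change -1.30, adjusted p = 0.00207). The groups did not overlap, and the changes of the platforms differed by 0.15 (standard error 0.147, adjusted p = 0.552). SMARCAL1, which reverses stalled replication forks, was lower on ABI, at 2.22, 2.47 and 2.23 in treated and 3.21, 3.12 and 3.05 in control arrays (change -0.82, standard error 0.134, adjusted p = 0.0134). Its AFFX change was -0.25 (standard error 0.0872, adjusted p = 0.0409), smaller than on ABI with a difference of 0.57 (adjusted p = 0.0218), and the ABI call was lost under quantile normalization (-0.56) and without treated array 3 or control array 2. HELLS, which aids DNA methylation, had a change of 0.19 on AFFX and -0.41 on ABI, and ATRX, which deposits histone H3.3 with DAXX, had 0.23 and 0.37, and neither passed.

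**Figure D3:**
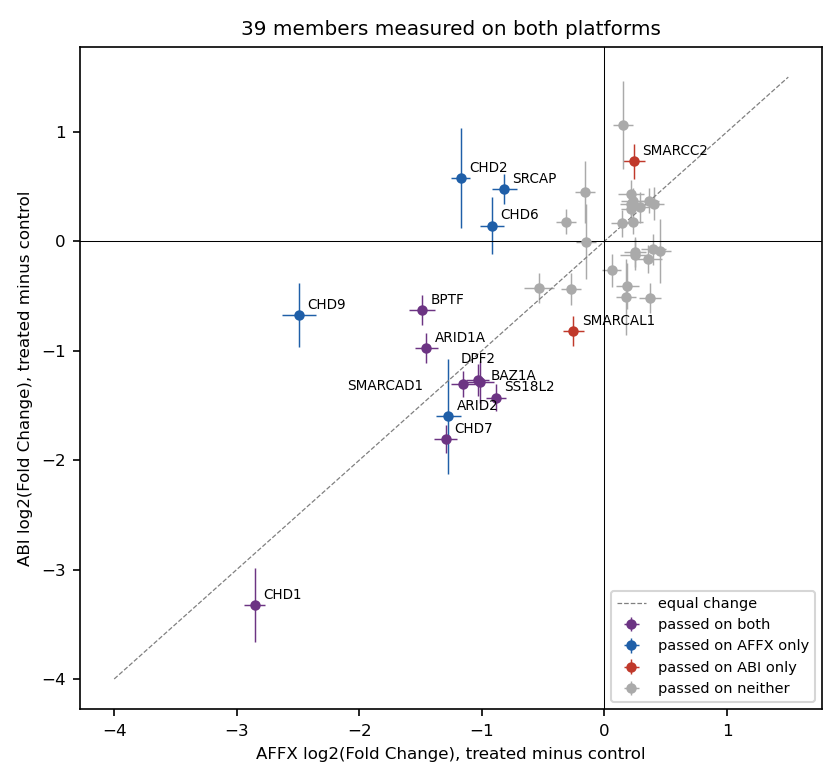
Change on AFFX against change on ABI (log2(Fold Change), treated minus control, with standard errors) for the 39 genes measured on both platforms, with a dashed line of equal change. The 8 genes that passed on both lie in the lower left, while CHD2, CHD6 and SRCAP lie left of zero on AFFX and above zero on ABI.

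Among the 39 genes with probes on AFFX and ABI, 25 had changes of the same sign, 5 were lower on AFFX only (ARID2, CHD2, CHD6, CHD9 and SRCAP), 2 passed on ABI only (SMARCAL1 and SMARCC2), 24 passed on neither, and 0 passed in opposite directions. Of the 16186 genes shared by the platforms, 11838 had changes of the same sign. In either direction 1145 of them passed on AFFX only and 1636 on ABI only. A further 11582 passed on neither, and 57 passed in opposite directions. Both platforms read aliquots of the same RNA pools. The difference of the changes was itself significant for 10 of the 39 genes, where 15.1% of the 16186 shared genes had such a difference. With the brightest probe of each gene the count was 6, of which SS18L2, BAZ2A, SMARCAL1, CHD2 and CHD6 were among the 10 and BAZ1A was not (1.21, adjusted p = 0.00806). The probe sets of a gene also differed on AFFX, where the 45 genes had 149 single-gene probe sets, 28 lower and 2 higher (10.4% and 1.71% of all single-gene probe sets). Of the 16 genes lower on AFFX, 11 had several probe sets. For ARID2, CHD1 and INO80 all of them were lower, and for BAZ1A, CHD2, CHD7 and SRCAP just 1 was. With the brightest probe set in place of that with the smallest p, 13 genes were lower on AFFX. The shares over all genes, 14.2% lower on AFFX and 15.1% with a platform difference, were taken with the smallest-p probes. They are not the background of these brightest-probe counts.

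**Figure D4:**
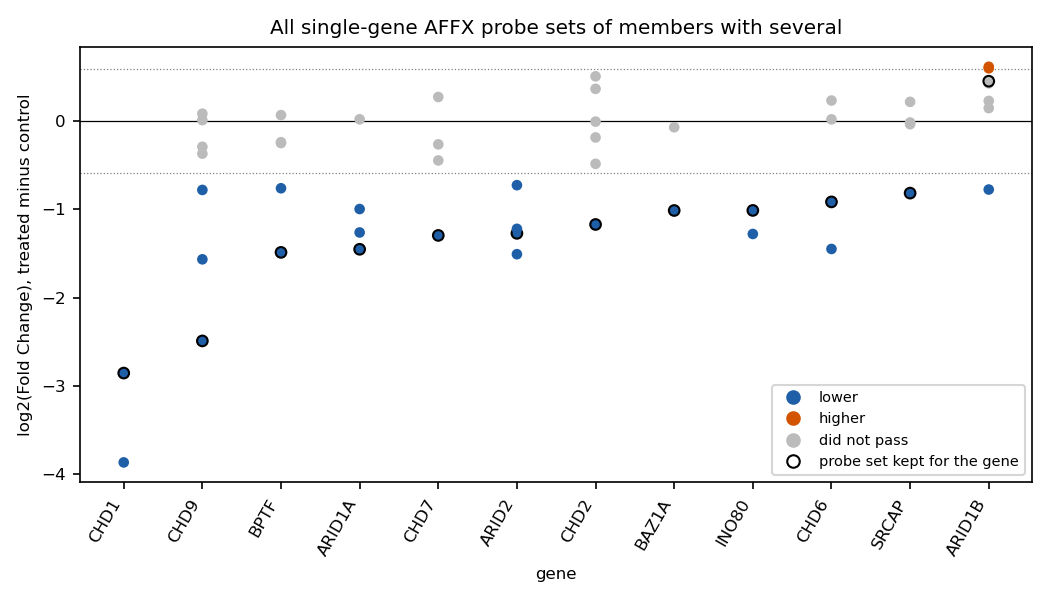
Change (treated minus control, log2 scale) of every single-gene AFFX probe set for the genes that were lower on AFFX and have several probe sets, and of ARID1B, with a ring around the probe set kept for the gene and dotted lines at 1.5-fold. All probe sets of CHD1, ARID2 and INO80 lie below the lower line, while those of CHD2, CHD9 and SRCAP are spread on either side of it.

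Further subunits of the same complexes and related ATPases were taken from a second list of 66 genes. On AFFX 25 of the 66 were lower and 1 was higher (background 14.2% and 2.49%), and on ABI 23 of 61 were lower and 2 higher (14.8% and 6.31%). Both platforms measured 61 of them, and 20 of these were lower on both (10.5%). By complex, lower genes on AFFX were 7 of 16 for the further SRCAP and TIP60 subunits, 6 of 11 for SNF2-like ATPases listed together with the ATRX partner DAXX, which was among the lower genes, 4 of 5 for ISWI partners, 3 of 11 for INO80, 2 of 12 for NuRD and 2 of 9 for SWI/SNF. Of CHD5 and CHD1L, listed under CHD by name, CHD1L was lower on AFFX, in 1 of its 5 probe sets. It did not pass on ABI (-0.18, adjusted p = 0.378). The 6 with the largest AFFX changes among those that passed in the same direction on both platforms were lower. They were the TIP60 subunits EPC2 (-2.19 on AFFX and -3.48 on ABI), EPC1 (-1.98 and -1.37) and YEATS4 (-1.97 and -2.10), the bromodomain protein BAZ2B (-1.93 and -2.30), ERCC6L, an ATPase of mitotic chromatin (-1.75 and -2.66), and KAT5, the TIP60 acetyltransferase itself (-1.71 and -2.63). The size of the fall differed between the platforms for EPC2 (difference 1.29, adjusted p = 0.0162), ERCC6L (0.91, adjusted p = 0.0241) and KAT5 (0.91, adjusted p = 0.0025). The brighter of the 2 ABI probes of KAT5 had a change of 0.48 (adjusted p = 0.0744). The ABI call of EPC1 (adjusted p = 0.0438) was lost without any 1 of 5 arrays, and its second ABI probe had a change of -0.33 (adjusted p = 0.635). ZNHIT1, an SRCAP subunit, was the 1 gene higher on both (0.69 and 0.62). ZRANB3 passed in opposite directions (-0.79 on AFFX and 0.65 on ABI), with 1 of 3 AFFX probe sets lower and 1 of 3 ABI probes higher. ZNHIT1 and ZRANB3 were named after their values were seen.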

How the data were processed

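Signals of A2780 cells were analysed from 12 arrays, 3 treated and 3 control on each platform, grouped by the condition in their labels. The AFFX values are log2 signals that the authors deposited after RMA with quantile normalization. On ABI the authors deposited chemiluminescence intensity values after global median normalization. Whether these are linear is not given in the sources used here. They were treated as linear, log2 was taken here, and detection flags were not used. Tests covered 33096 ABI probes and 54613 AFFX probe sets, without 62 control probe sets. Of these, 41091 and 21089 stood for 1 gene, 1801 and 563 for several and 11721 and 11444 for none. Those without a single gene took part in the p-value adjustment only. Symbols came from the platform annotation, updated through Entrez Gene IDs.

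Treated and control arrays were set against each other without pairing in limma (3.58.1, under R 4.3.3), separately for AFFX and ABI, and the difference of the changes as an interaction over the 12 arrays of the 16186 shared genes. The steps were tested on simulated data. Each gene kept 1 probe, that of the smallest p in a t-test of equal variances, as in the study's methods. The number of arrays limits the precision. The list of 45 genes, the second list of 66, the marker lists (leukocyte, fibroblast or endothelial, epithelial and ovarian carcinoma, and reference genes) and the rules for named genes were chosen with earlier results of these data known. Signals in every array were given for genes that passed on both platforms, for genes with probes passing in opposite directions and for the 3 largest changes that passed on 1 platform only. Others were added where the text shows them. Of the markers, 2 of 12 fibroblast or endothelial genes were lower (COL1A2 and COL3A1) and 1 higher (CLDN5) on AFFX, and 1 of 12 higher on ABI (COL1A1). Of the epithelial and ovarian carcinoma list 1 of 10 was lower on AFFX (VIM), and 1 of 9 was lower (KRT18) and 1 higher (MUC16) on ABI. These calls are those of the probe with the smallest p. The brightest AFFX probe sets of COL1A2, COL3A1 and VIM had changes of 0.03, 0.05 and -0.08, and the brightest ABI probe of COL1A1 had 0.01. Of the reference genes 1 of 6 was lower on AFFX (TBP), and 1 of 5 was lower (TBP) and 1 higher (B2M) on ABI. Promoters came from RefSeq. Alternatives, tried 1 at a time, were the replicate number as a block, other fold limits, another probe per gene, the methods' t-test, an intensity trend, filters on dim or little varying probes (interquartile range of at least 0.4), other scalings, log2(signal + 1) on ABI, and each array left out in turn.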

Additional observations from a re-analysis of the deposited data

Results flagged for a closer look

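For 10 of the 39 genes with probes on AFFX and ABI, the change on AFFX and the change on ABI differed by limma's interaction test with Benjamini-Hochberg adjustment over the 16186 shared genes. Values are the AFFX change minus the ABI change (log2, 3 arrays per group and platform). SRCAP had the smallest p, with a difference of -1.29 (adjusted p = 0.000684), from a change of -0.82 on AFFX and 0.48 on ABI. BAZ2A differed by 0.89 (adjusted p = 0.00265), CHD9 by -1.82 (adjusted p = 0.00739), BPTF by -0.86 (adjusted p = 0.00882) and SS18L2 by 0.55 (adjusted p = 0.0105). BAZ1B differed by -0.49 (adjusted p = 0.0131), SMARCAL1 by 0.57 (adjusted p = 0.0218), CHD6 by -1.06 (adjusted p = 0.0301), CHD2 by -1.75 (adjusted p = 0.0356) and CHD7 by 0.51 (adjusted p = 0.0390). With a variance of its own for each platform, CHD2 (adjusted p = 0.0653) and CHD7 (adjusted p = 0.0572) missed the threshold. With the brightest probe of each gene, SRCAP (adjusted p = 0.0583), CHD9 (adjusted p = 0.135), BPTF (adjusted p = 0.679), BAZ1B (adjusted p = 0.968) and CHD7 (adjusted p = 0.977) missed it. For CHD9 the kept AFFX probe set (4.39 in treated arrays) and for CHD6 the ABI probe (-0.99 in treated and -1.13 in control arrays) had signals close to those of the leukocyte markers, so the sizes of these differences are uncertain. With the kept probes such a difference was found for 15.1% of all shared genes, and the parts of the transcript that each probe reads were not compared here. In probe sets outside the comparisons, the 18 AFFX hybridisation controls were higher in treated arrays by 0.52 (log2).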

How the results depend on the processing

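Among the single genes named, 658 values under an alternative kept their direction and side of the threshold, 43 lost and 1 gained the call, 14 moved in value and 2 reversed, namely ARID1B on AFFX with arrays centred on hybridisation controls (-0.074) and KAT5 on ABI with the brightest probe (0.48). Among counts, 156 stayed within 1.5 times and 34 did not. The cause was not tested. Without a fold limit AFFX had 4307 genes lower and 6546 higher (main 2804 and 493) and 9 of the 45 genes higher. At 2-fold it had 1619 lower and 32 higher. AFFX genes higher were 275 with arrays centred on the median, and 47 (4162 lower) on ribosomal protein genes. On hybridisation controls 5570 were lower and 25 higher, and of the 45 genes 24 were lower. On ABI (main 2546 lower and 1085 higher) centring on ribosomal protein genes gave 5583 lower and 80 higher, with 20 of the 39 genes lower, and the 2-fold limit gave 384 higher. The 1 gene higher on ABI, SMARCC2, became 0 under the 2-fold limit, the brightest probe, ribosomal centring, log2(signal + 1) and the replicate block, and 3 genes were higher under quantile normalization. At 2-fold 5 genes were lower on both platforms (main 8), and the brightest probe left 6 platform differences (main 10). Samples that share a replicate number had correlations of 0.00403 to 0.327 for AFFX and of -0.00667 to 0.0717 for ABI, so the numbers were not taken as pairs. With them as a replicate block ABI had 1499 genes lower and 174 higher (7 of the 39 lower and 0 higher, with the calls of BPTF, SMARCAL1, SMARCC2 and EPC1 lost), and AFFX 2805 and 493. With single arrays left out, AFFX had 406 to 769 genes higher (769 without control array 3), ABI had 308 to 569 higher and 1743 to 2123 lower, and the genes lower numbered 16 to 17 of 45, 7 to 9 of 39 and 7 to 8 on both, with 0 to 1 higher on ABI. EPC1 on ABI lost its call without any 1 of 5 arrays (changes of -1.57 to -0.995 over all 6). Spread between ABI arrays limits small changes there.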

Other observations

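Probes that the annotation assigns to several genes gave further values for 4 of the genes. An ABI probe shared by CHD8 and SNORD8 was lower in treated arrays (0.91 in treated and 2.52 in control arrays, change -1.61, adjusted p = 0.00214 in limma), where CHD8 had no ABI probe of its own. An ABI probe shared by RUVBL1 and EHD1 was lower as well (1.31 in treated and 2.08 in control arrays, change -0.78, adjusted p = 0.0124), while the ABI probes of RUVBL1 alone, 2 in number, had changes of 0.29 and 0.20. On AFFX, a probe set shared by SS18 and DDX27 (change 0.02) and the pair shared by SRCAP and TMEM265 (changes -0.05 and -0.16) did not pass. Which of the named genes these signals come from was not tested.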
